A study of Danio rerio with 2 samples.

Results

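MYB (ENSDARG00000053666), the gene of a transcription factor of blood stem and progenitor cells, was described in cells sequenced singly from the caudal hematopoietic tissue of the zebrafish. It is 1 of 19955 gene rows of the count tables and was taken by its identifier. MYB binds DNA through a domain of repeated helices and activates transcription together with coactivators such as EP300. In zebrafish and mouse it is needed for definitive blood formation, and in mammals its level is known to decline as erythroid and myeloid cells mature. The caudal hematopoietic tissue is the site in the tail of the larva where stem and progenitor cells that have left the aorta lodge and divide.

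The cells were sorted as hematopoietic stem and progenitor cells (HSPCs) from wild-type larvae of 5 days post fertilization, with a sort day of 6 also given, and no treatment was labelled. They filled 2 plates of 384 wells, plate 20 and plate 21, read with CEL-seq2, a method that counts the 3′ ends of transcripts with molecular identifiers. The plate layouts class wells as D (double), S (single) or X (undefined) without naming the markers meant. Neither the reporter lines, the number of larvae nor any pooling was given in the labels. The p-values thus cover only variation between plates, estimated partly from all genes together, and that can be technical.

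Wells with at least 500 transcripts were taken as cells, which left 300 cells on plate 20 (189 D and 111 S) and 275 on plate 21 (186 D and 89 S). Their median depth was 7508 transcripts on plate 20 and 8960 on plate 21. The sorted cells were mixed: 81 cells on plate 20 and 77 on plate 21 had over 5% of their transcripts from globin genes. A neutrophil gene share of at least 1% was found in 28 and 23 cells of at most 5% globin. A further 15 wells had over 5% muscle or epidermis transcripts, and 1 of them, a D well of plate 20, held 249815 transcripts. The layout of plate 21 carried no well numbers, and D and S values of that plate rest on reading it along rows, as plate 20 was numbered. Both tables number their 384 wells alike, so a cell was identified by plate and well.

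MYB was found in most of the cells, mostly at a few transcripts each. The tables held 2023 MYB transcripts in the 575 cells, or 341 counts per 1000000 transcripts (CPM) on plate 20 and 348 CPM on plate 21. At least 1 MYB transcript was present in 377 cells, 65.6% (95% Clopper-Pearson interval 61.5 to 69.4, which covers counting error only). MYB was at 0 in 198 cells, at 1 or 2 transcripts in 147, at 3 to 9 in 170 and at 10 or more in 60. The highest cell held 33.1 transcripts, after the correction for identifiers drawn more than once.

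The share of cells with MYB depended on depth. With each cell reduced to 2000 transcripts, MYB was detected in 213 of 514 cells, 41.4% (37.1 to 45.8), with 43.5% on plate 20 and 39.4% on plate 21. Cells below that depth were left out. In the 14 wells rich in muscle or epidermis that could be reduced to that depth, MYB was found in 0, and the exact interval reaches to 23.2%. Before reduction 7 of the 15 had a MYB transcript, at 62.9 CPM and a median depth of 9640. Of their 26.05 MYB transcripts, 20.05 lay in the well of 249815 transcripts. Wells under 500 transcripts had MYB in 5 of 77 on plate 20 and in 0 of 100 on plate 21, which allows a share of up to 3.62% by the exact interval. At equal depth the share over all cells thus lay above the interval of the wells rich in other tissue.

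The 60 cells with at least 10 MYB transcripts made up 10.4% of cells and held 45.8% of the MYB transcripts. They numbered 28 on plate 20 and 32 on plate 21, with 42 D and 18 S cells. Of these cells 31 had under 1% globin, 26 had 1 to 5% and 3 had more, and 0 were neutrophil-rich. Their median depth was 20511 transcripts, against a median of 8267 over all cells, so depth moved with this count.

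**Figure D1:**
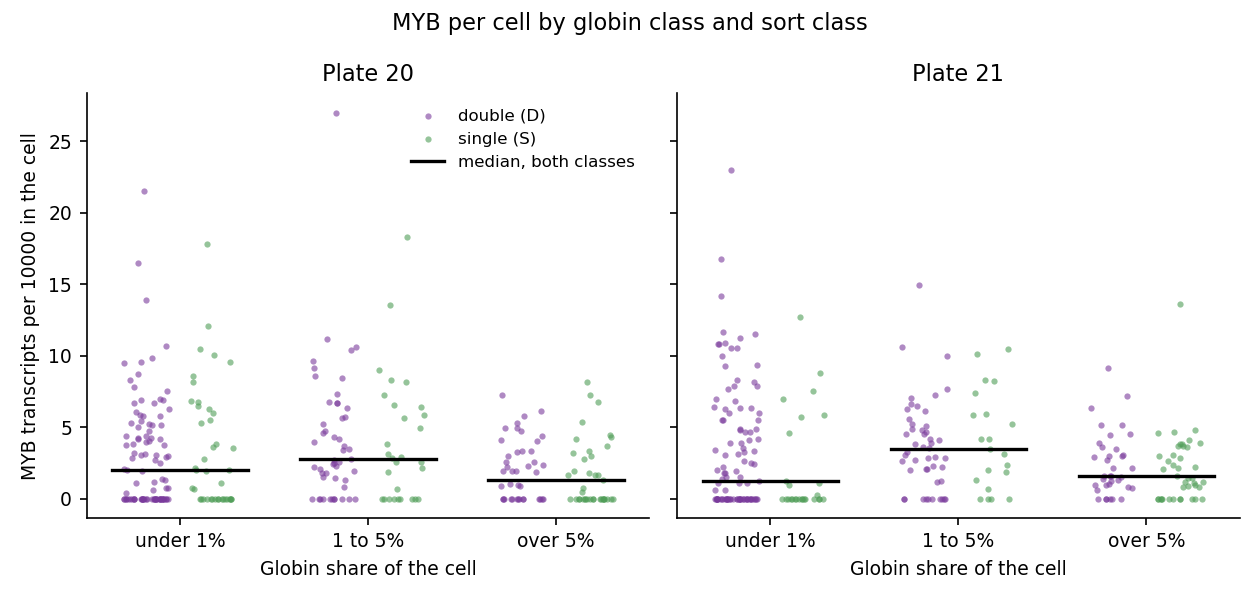
Each point is 1 cell, placed by the globin share of its transcripts (x axis, 3 classes) and its MYB transcripts per 10000 (y axis), with D cells in purple left of S cells in green and a black line at the median of both. Cells of over 5% globin reached at most 8.12 on plate 20 and 13.6 on plate 21, while cells of 1 to 5% globin reached 27.0 and 14.9. The highest cell under 1% globin lay between these values on plate 20 and above both on plate 21. The values of 27.0, 13.6 and 14.9 came from shallow wells of 741.34, 734.63 and 671.06 transcripts, with 2, 1 and 1 of MYB. They thus do not rank the classes.

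The D and S classes addressed how the sort gates differ, and in sums of cells MYB gave no common direction between them. In D cells MYB was at 326 CPM on plate 20 and 372 CPM on plate 21, against 368 and 294 CPM in S cells. D cells were thus below S cells on plate 20 and above them on plate 21. The D sum of plate 20 includes the well of 249815 transcripts, with 20.05 of MYB, which lowered its level. The gap between D and S on plate 20 thus leans on this well. On sums of all cells per plate and class, the log2 fold, D over S, was 0.06 ± 0.16 (SE, n = 2 plates, edgeR adjusted p = 0.949), with −0.13 on plate 20 and 0.24 on plate 21. Of 8488 genes, edgeR called 0 (0% called), with 724 at an unadjusted p under 0.05. DESeq2 called 32 of the 986 genes to which it gave an adjusted p. Without the 15 wells rich in muscle or epidermis edgeR called 86 genes, and the MYB fold was 0.05 ± 0.12.

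Cells with MYB were 66.1% of D cells (125 of 189) and 58.6% of S cells (65 of 111) on plate 20, and 69.9% of D cells (130 of 186) and 64.0% of S cells (57 of 89) on plate 21. With cells reduced to 2000 transcripts the shares were 47.2% (39.4 to 55.2) of D against 37.1% (27.5 to 47.5) of S cells on plate 20. On plate 21 they were 43.7% (36.2 to 51.4) of D against 30.0% (20.3 to 41.3) of S cells. The share was higher in D cells on both plates at this depth, but the intervals of D and S overlapped on each plate and no test was made. At 1000 transcripts plate 20 had 23.03% of D against 23.2% of S cells, and plate 21 had 27.8% against 20.2%.

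S cells held more globin-rich members, 40 of 111 on plate 20 and 41 of 89 on plate 21, against 41 of 189 and 36 of 186 D cells. In cells of at most 5% globin, MYB was at 352 CPM in D and 447 CPM in S cells of plate 20, and at 406 CPM in D and 369 CPM in S cells of plate 21. The D sum of plate 20 again includes the well of 249815 transcripts, which lowered its level. The plates again differed in direction, and the log2 fold was −0.09 ± 0.16 (edgeR adjusted p = 0.971). In that comparison 0% of 7858 genes were called by edgeR, and 543 had an unadjusted p under 0.05, while DESeq2 called 23 of 3955.

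**Figure D2:**
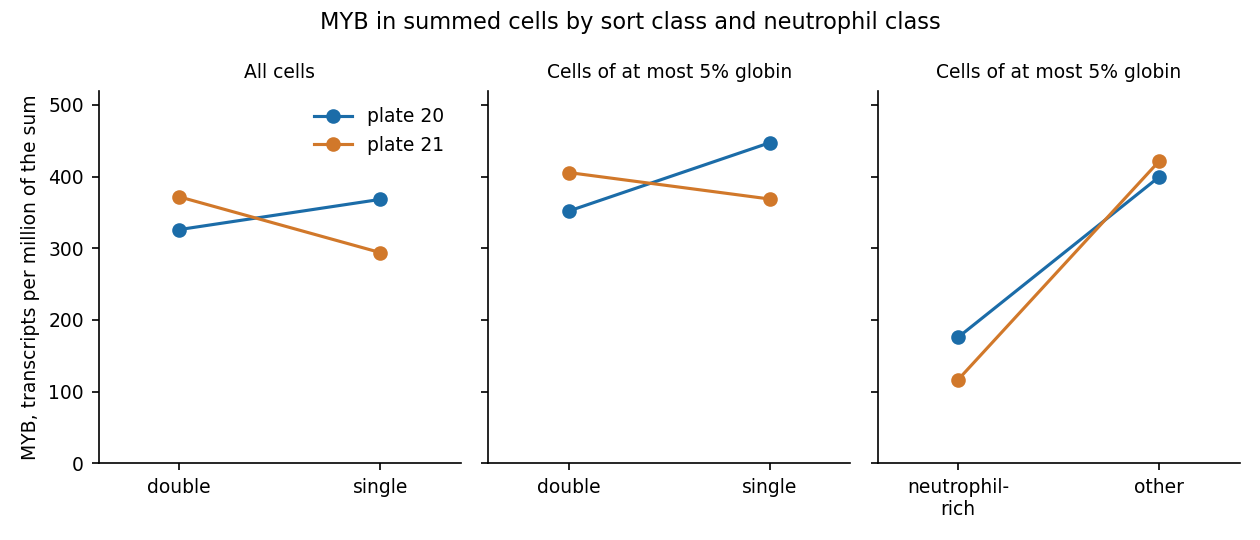
MYB in CPM of each sum (y axis), with plate 20 in blue and plate 21 in orange; lines join the classes of a plate. The D and S points cross between plates, whereas neutrophil-rich cells, at 176 and 117, lay below the other cells, at 400 and 422, on both plates. The D points of plate 20 include the well of 249815 transcripts, which lowered them.

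Globin-rich cells, those in which hemoglobin transcripts have begun to accumulate, had less MYB than globin-low cells. To keep globin itself from diluting the other genes, globin rows were left out of the sums here, and CPM of this kind are called non-globin CPM. Cells under 1% globin had 400 non-globin CPM of MYB on plate 20 and 365 on plate 21. Cells of 1 to 5% had 371 and 456, and cells over 5% had 232 and 268. The 1 to 5% class of plate 20, of 910546 non-globin transcripts, includes the well of 249815 transcripts. That well held 20.05 of the 338 MYB transcripts of the class and lowered its level, so its place below the globin-low class there leans on this well. MYB was lower in the globin-rich than in the globin-low class on both plates, with a log2 fold of −0.62 ± 0.15 (edgeR adjusted p = 0.0155), −0.76 on plate 20 and −0.48 on plate 21. This is a level 0.651 times that of globin-low cells, and 35.8% of 7658 genes were called in this comparison, so a call by itself does not set MYB apart. With classes cut at equal cell numbers instead of at 1% and 5%, the fold was −0.29 and was not called (edgeR adjusted p = 0.145). With each cell reduced to 1000 transcripts it was −1.30, from only 14 and 10 MYB transcripts in the globin-rich and 40 and 53 in the globin-low sums. In another draw at this depth 14.2% of globin-rich and 24.1% of globin-low cells had MYB. In cells of 5000 to 15000 transcripts, each reduced to 5000, the fold was −0.93.

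The intermediate class did not differ detectably from the globin-low class, with a log2 fold of 0.14 ± 0.15 (edgeR adjusted p = 0.540), where 19.5% of genes were called. In finer classes, with neutrophil-rich cells and wells rich in muscle or epidermis left out, MYB in non-globin CPM on plate 20 was 382 in cells under 0.5% globin, 580 at 0.5 to 1%, 556 at 1 to 2%, 457 at 2 to 5%, 247 at 5 to 10% and 191 over 10%. On plate 21 the same classes had 410, 493, 489, 438, 327 and 192. On both plates the level was highest between 0.5 and 2% and lowest over 10%. The shares of cells with MYB over 10% globin were still 43.3% on plate 20 and 73.8% on plate 21, at median depths of 5574 and 8813 transcripts.

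The globin-low class held several cell types. Of its cells, 48 of 140 on plate 20 and 48 of 129 on plate 21 fell in the 3 largest of 8 clusters, made without MYB, while all 81 and 77 globin-rich cells did. Within those clusters, MYB in non-globin CPM was 609, 484 and 232 in cells under 1%, of 1 to 5% and over 5% globin on plate 20, and 616, 462 and 268 on plate 21, with wells rich in muscle or epidermis left out. MYB was lower with each step in globin on both plates, and the log2 fold of globin-rich over globin-low cells was −1.30. With those wells kept the intermediate class of plate 20 was at 373, since the well of 249815 transcripts belonged to it, and the fold was −1.28. MYB was present in 95.8%, 88.9% and 58.0% of the cells of plate 20 and in 97.9%, 90.0% and 76.6% of those of plate 21. No p is given for these values, since the clusters were chosen after values had been seen.

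Erythroid genes, a group that follows the globin genes by which cells were classed, were higher in this comparison, where MYB was lower. In some other readings they went with MYB, but not in all. Between D and S cells 1 of 24 had a fold above 0 (median −0.41), with MYB at 0.06. In the intermediate over the globin-low class, where 19.5% of genes were called, 20 of 24 rose and MYB was not called. Across all cells, without reduction of depth, 20 of 20 erythroid genes had a positive Pearson's r with MYB (median 0.210, against 0.119 over 3223 genes). In the cell cycle comparison given below 21 of 22 rose, as MYB did, where 20.8% of all genes rose. Over all genes 15.1% rose and 20.7% fell in globin-rich cells. Of 24 tested erythroid genes 23 rose in globin-rich cells (median log2 fold 2.17, against −0.02 over all genes), among them the heme synthesis gene alas2 at 4.44 ± 0.12 and cahz, of a red cell carbonic anhydrase, at 4.05 ± 0.11. Cell cycle genes were also higher in globin-rich cells: 27 of 35 S phase genes and 36 of 40 G2/M genes rose. The neutrophil list had 7 of 7 tested members lower, with lyz, a lysozyme gene, at −4.53 ± 0.16, and the macrophage list 9 of 9. The globin-low class thus also held the cells with myeloid transcripts.

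**Figure D3:**
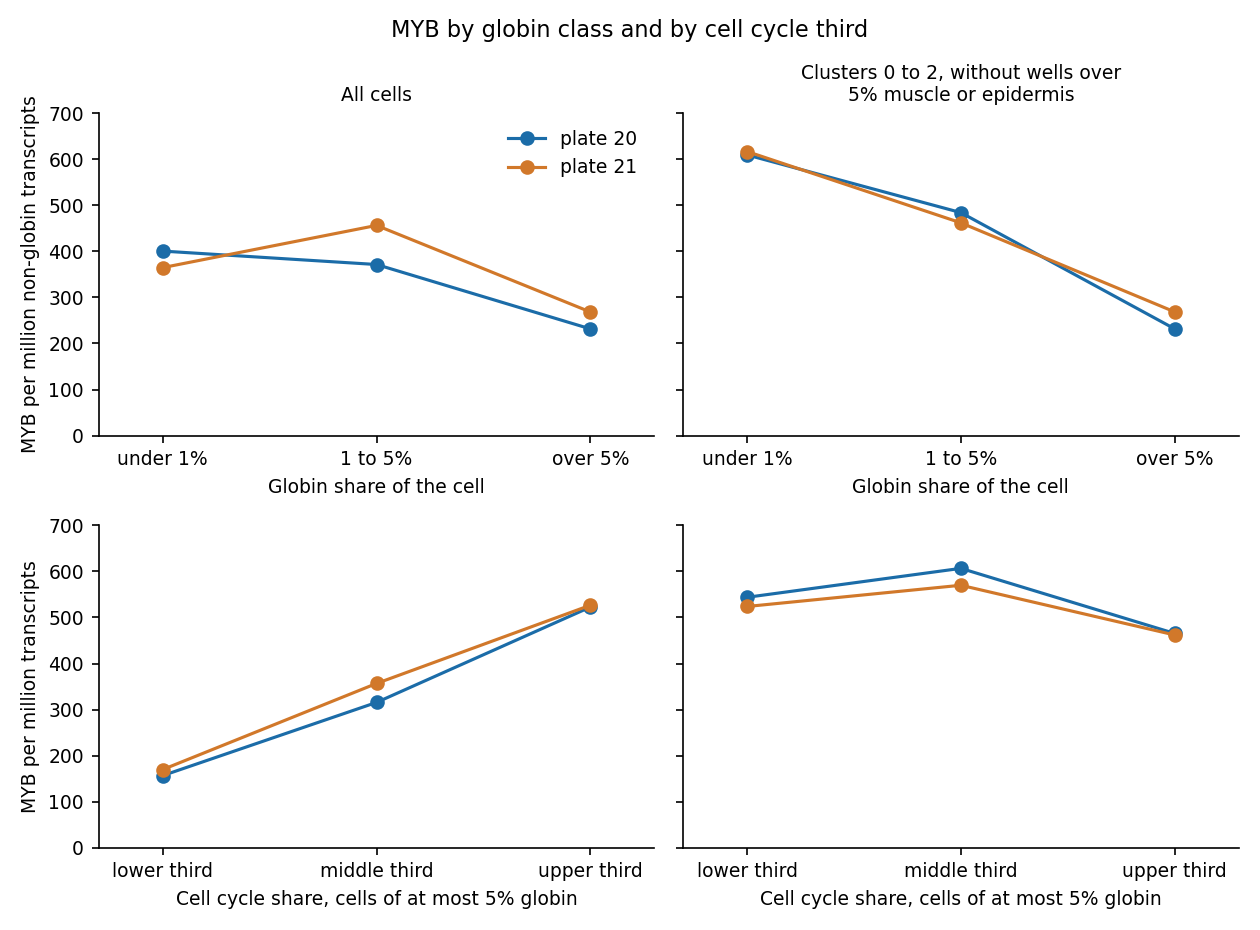
MYB by globin class (upper panels, non-globin CPM) and by cell cycle class in cells of at most 5% globin (lower panels, CPM), with plate 20 in blue and plate 21 in orange. Left, all cells, and right, cells of clusters 0 to 2 without wells rich in muscle or epidermis. On plate 20 the middle points of both left panels include the well of 249815 transcripts, which lowered them. The rise of MYB with cell cycle share over all cells, 157 to 522 on plate 20 and 170 to 526 on plate 21, was not present within those clusters, while the fall with globin share was steeper there.

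Neutrophil-rich cells had less MYB than the other cells of low globin. These cells, with at least 1% of transcripts from 9 neutrophil genes, had 176 CPM on plate 20 and 117 CPM on plate 21, against 400 and 422 CPM in the other cells of at most 5% globin. MYB was found in 8 of 28 neutrophil-rich cells (28.6%) and 135 of 191 other cells (70.7%) on plate 20, and in 9 of 23 (39.1%) and 119 of 175 (68.0%) on plate 21. The log2 fold was −1.51 ± 0.25 (edgeR adjusted p = 6.18e-08), with −1.19 on plate 20 and −1.86 on plate 21, both in the same direction. The median gene had −0.33, relative to which MYB was at −1.17, and 38.1% of 7811 genes were called. The neutrophil-rich sums rested on 29 and 20 MYB transcripts. On plate 20 most of them lay in single cells with 9.01, 8.01 and 5, and the cell with 8.01 had a neutrophil share of 1.48%. With cells reduced to 1000 transcripts the fold was −2.94, from only 1 and 2 MYB transcripts in the neutrophil-rich sums of that draw. In another draw at this depth 14% of neutrophil-rich and 30.4% of other cells had MYB, with 3.70% against 30.6% on plate 20 and 26.1% against 30.1% on plate 21, so the size of the fold at this depth rests on few transcripts.

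Depth was lower in neutrophil-rich cells, with medians of 5167 and 6710 transcripts against 7844 and 8935 in the other cells. Reduced to 2000 transcripts, 22.2% (11.2 to 37.1) of 45 neutrophil-rich and 49.2% (43.6 to 54.9) of 317 other cells had MYB. In cells of 5000 to 15000 transcripts, each reduced to 5000, the fold was −1.34. Only 1 of 417 cells lay within 20% of the limit that separates the classes. Near the globin limits of 1% and 5% there were 54 and 50 of 575 cells. The share of 22.2% lay within the interval of up to 23.2% of the 14 wells rich in muscle or epidermis at the same depth. The 2 could thus not be told apart by detection. The levels before reduction, 176 and 117 CPM, stood above the 77.3 and 19.4 CPM of all such wells on plates 20 and 21. Most MYB transcripts of those wells lay in 1 well of plate 20.

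Other genes, not used to choose these cells, differed as follows, where 17.8% of all genes rose and 20.3% fell. All 5 tested myeloid progenitor genes rose, including the granulocytic factor gene CEBPA at 4.81 ± 0.32 and SPI1, the gene of PU.1, at 4.35 ± 0.25. Of 33 S phase genes 22 fell and 0 rose, and of 39 G2/M genes 20 fell and 0 rose, with the proliferation marker mki67 at −1.78 ± 0.26. Erythroid genes fell in 21 of 24. Lower MYB thus came together with fewer cell cycle transcripts in these cells.

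Over all cells of at most 5% globin, MYB was higher in cells with more cell cycle transcripts. Cells were divided within each plate into 3 equal classes by the share of transcripts from 37 S phase and 44 G2/M genes, which were left out of the sums tested. Within 20% of the lower and upper limits lay 31 and 59 of 219 cells on plate 20, and 27 and 47 of 198 on plate 21. On plate 20 MYB was at 157, 316 and 522 CPM in the low, middle and high classes, and on plate 21 at 170, 357 and 526 CPM. The middle class of plate 20, of 758307 transcripts, includes the well of 249815 transcripts with 20.05 of MYB, which lowered its level. MYB was present in 32.9%, 69.9% and 93.2% of these cells on plate 20 and in 33.3%, 66.7% and 93.9% on plate 21. The log2 fold of the high over the low class was 1.31 ± 0.20 (edgeR adjusted p = 0.0018), with 1.37 on plate 20 and 1.24 on plate 21. In this comparison 49.6% of 6914 genes were called. Without the TMM factor, a scaling between sums, the median gene moved to 0.43, against 0.06 with it, and MYB to 1.67.

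Depth moved with the cell cycle class. Median depths were 4502, 6579 and 12042 transcripts from low to high on plate 20 and 5233, 8035 and 15129 on plate 21. At 2000 transcripts per cell MYB was detected in 23.7% (16.4 to 32.4), 49.1% (39.5 to 58.7) and 62.9% (54.0 to 71.1) of the cells of both plates. On plate 20 the shares were 23.7%, 52.7% and 67.6%, and on plate 21 they were 23.7%, 45.6% and 57.8%. The order of the classes was thus kept on both plates at equal depth. The pooled intervals take each cell as a draw and cover counting error only, so they are no test between classes. With cells reduced to 1000 transcripts the fold was 0.88 and was not called (edgeR adjusted p = 0.0633), from 39 and 41 MYB transcripts in the high and 12 and 19 in the low class. In another draw at this depth 42.1% (33.6 to 51.0) of high and 14.0% (8.48 to 21.2) of low cells had MYB. In cells of 5000 to 15000 transcripts reduced to 5000 it was 0.99 (edgeR adjusted p = 0.0159).

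Cell type moved with the class as well. Of the low class, 67 of 73 cells on plate 20 and 58 of 66 on plate 21 belonged to clusters 3 to 7, against 6 of 73 and 3 of 66 in the high class. The low class held 18 and 13 neutrophil-rich cells and 8 and 6 of the wells rich in muscle or epidermis. Without the neutrophil-rich cells the fold was 0.96, and without the wells rich in muscle or epidermis 0.97. Within clusters 0 to 2, divided anew into 3 classes and without those wells, MYB was at 544, 606 and 465 CPM on plate 20 and at 524, 570 and 462 CPM on plate 21. The new low class ran up to 0.906% and 0.798% cell cycle share, against 0.412% and 0.352% for the low class over all cells. Only 6 and 8 cells of the latter lay in these clusters, so the lowest range was hardly compared here. The middle class was the highest on both plates and the high class the lowest, and the log2 fold of high over low was −0.44. With the wells kept it was −0.18, and the low class of plate 20 was then at 294 CPM, since the well of 249815 transcripts fell in it.

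Globin and cell cycle shares were then read together, over all cells except neutrophil-rich cells and wells rich in muscle or epidermis. For this the cells, globin-rich ones included, were divided anew within each plate into 3 equal cell cycle classes, so the classes differ from those above. Cells over 5% globin were mostly cycle-high, with 54 of 81 on plate 20 and 47 of 77 on plate 21. These 54 and 47 cells had only 184 and 251 non-globin CPM of MYB. Cycle-high cells under 1% globin had 503 on plate 20 (14 cells) and 673 on plate 21 (5 cells), and those of 1 to 5% had 401 and 433. Among cycle-middle cells the level was 656, 538 and 357 from low to high globin on plate 20 and 579, 489 and 312 on plate 21. At a given middle or high cell cycle class, MYB was lower with each step in globin on both plates. Cycle-low cells went against this: those of 1 to 5% globin (23 and 13 cells, 26.01 and 20.01 MYB transcripts) had 441 and 435, above the 209 and 304 of those under 1%. The 4 and 3 globin-rich cells of that class had 383 and 173, from 7 and 2 transcripts. Median depths of cycle-low cells were only 982 and 2684 transcripts at 1 to 5% globin, against 4995 and 5617 under 1%. Of all cells under 1% globin, 32 and 31 lay in cluster 3 and 23 and 17 in cluster 4. These 2 clusters, described below, were not left out here, and their part in the order was not tested.

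Clusters of cells, made without MYB and given as a description, held MYB at different levels. Cluster 0 (189 cells), led by the embryonic globin gene hbae1.3, TCIM, the zinc finger gene blf and the stem cell factor gene TAL1, had 473 CPM on plate 20 and 411 CPM on plate 21. Cluster 2 (90 cells), led by MEF2A, a factor of the MADS box family, with mki67 and blf among its 10 leading genes, had 485 and 530 CPM. Cluster 1 (99 cells) had 257 and 43.3 CPM, and 320 and 75.2 CPM without 2 wells rich in muscle, whose genes led it. Clusters 0, 1 and 2 were each mostly of 1 plate, with 175, 5 and 5 of their cells from plate 21, so their differences cannot be told apart from the plate.

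Clusters 3 to 7 held cells of both plates. The neutrophil-like cluster 5 (49 cells), led by npsn, lyz, mmp13a and MMP9, had 135 CPM on plate 20 and 117 CPM on plate 21. The macrophage-like cluster 4 (53 cells), with MFAP4 and ACOD1 among its leading genes, had 73.2 and 50.6 CPM, from 10 and 5 transcripts. Cluster 3 (68 cells) stayed unnamed and was led by si:dkey-21e2.16, col1a1a, the chemokine receptor gene CCR9 and CEBPB. It had 243 and 146 CPM. The unnamed cluster 6 (14 cells, median depth 833) had 1 MYB transcript on plate 20 and 0 on plate 21. Cluster 7 (13 cells, led by keratin and collagen genes, 11 of them wells rich in muscle or epidermis) had 4 and 1.

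**Figure D4:**
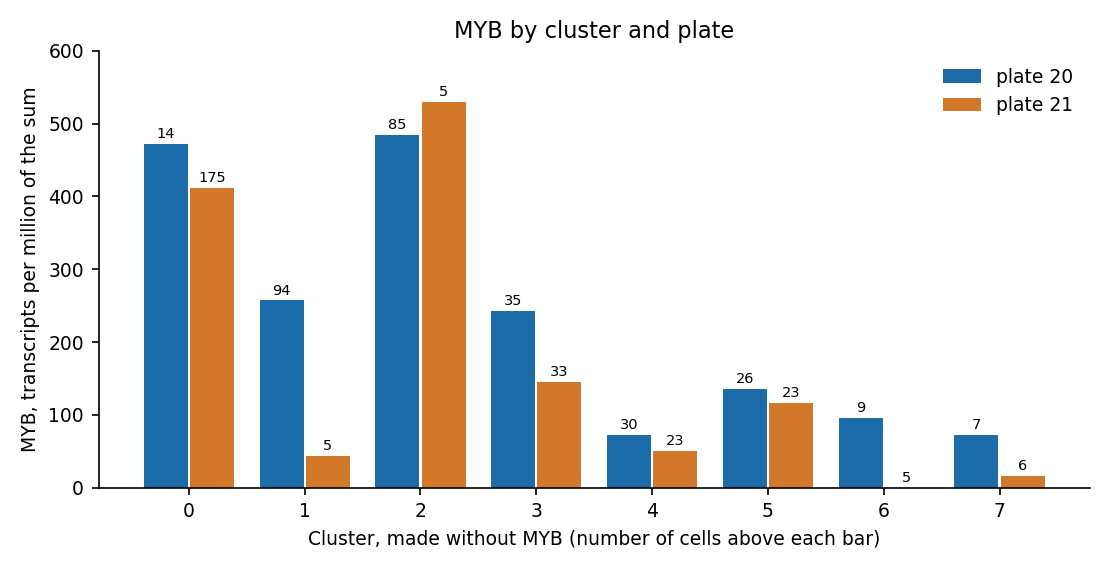
MYB in CPM of the summed cells of each cluster (y axis), for plate 20 (blue) and plate 21 (orange), with the number of cells above each bar. Clusters 0 and 2 stood above 400 on both plates, and clusters 4 to 7 below 140.

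Of the other MYB family genes, MYBL2, the gene of the B-Myb factor of dividing cells, went the opposite way to MYB in globin-rich cells and the same way in the cell cycle and neutrophil comparisons. MYBL2 rose in globin-rich cells, with 79.4 and 78.5 TMM-normalized CPM on plates 20 and 21, against 33.1 and 28.1 CPM in globin-low cells (log2 fold 1.37 ± 0.21, edgeR adjusted p = 0.00250). MYBL1, the gene of A-Myb, rose too, with 25.9 and 24.2 CPM against 5.65 and 1.76 CPM. In the high cell cycle class MYBL2 was at 66.5 and 72.2 CPM, against 2.91 and 10.5 CPM in the low class, a log2 fold of 3.31 ± 0.51, and MYBL1 was removed by the filter on low counts. MYBL2 fell in neutrophil-rich cells (−1.70 ± 0.67), with 12.8 and 18.5 CPM against 54.9 and 48.0 CPM in the other cells. The neutrophil-rich sums held only 154738 and 160412 transcripts. The MYBL2 values of these sums and of the low cell cycle class thus rested on few transcripts. The copy mybl2a was tested only in the comparisons of sort class over all cells and of neutrophil-rich cells and was called in neither.

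HSPC factors did not move in 1 direction in globin-rich cells. Of 11 tested HSPC genes 5 rose and 4 fell, where 15.1% of all genes rose and 20.7% fell (median log2 fold 0.57, against −0.02 over all genes). The genes TAL1 and LMO2, whose proteins act in 1 complex with GATA1 in erythroid cells, had log2 folds of 0.68 ± 0.14 and 0.66 ± 0.15. GFI1B, the gene of a transcriptional repressor that acts in the erythroid and platelet lineages, was at 1.47 ± 0.29. IKZF1, the gene of a lymphoid factor, was at 0.67 ± 0.16. MLLT3, a chromatin reader gene active in stem cells, was at 55.1 and 54.4 CPM in globin-rich and at 1.61 and 1.76 CPM in globin-low cells. Lower in globin-rich cells were KIT, the receptor of stem cell factor, at −2.54 ± 0.34, cd34 at −3.94 ± 0.50, the ETS factor gene FLI1 at −3.57 ± 0.58 and ptprc, the pan-leukocyte gene of CD45, at −4.62 ± 0.33. Few transcripts of cd34 (1.62 and 3.62 CPM) and FLI1 (1.62 and 2.42 CPM) were left in globin-rich cells. MYB, at −0.62, was lower too, but these genes did not follow it elsewhere as 1 group. In neutrophil-rich cells, where MYB was also lower, ptprc rose (3.91 ± 0.24) and so did FLI1 (3.79 ± 0.55). KIT fell there (−2.79 ± 0.53), and cd34 (−2.24 ± 0.98) was not called.

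Genes known in mammals as MYB partners or targets did not move as 1 group. Of 15 tested in the globin comparison 4 rose and 8 fell, beside the same shares of all genes (15.1% and 20.7%; median log2 fold −0.65). The erythroid factor gene gata1a was higher at 1.26 ± 0.16 and the mitotic cyclin gene CCNB1 at 1.59 ± 0.23, while the coactivator gene EP300 was lower at −3.04 ± 0.58 and the myeloid factor gene CEBPB at −4.04 ± 0.25. The EP300 fold rested on few transcripts, at 1.62 and 3.62 CPM in globin-rich against 21.8 and 23.7 CPM in globin-low cells. Of the 2 rows named MYC, the gene of a factor that drives cell growth, ENSDARG00000045695 fell (−1.49 ± 0.39) and ENSDARG00000007241 was at −0.41 ± 0.20 and not called. In neutrophil-rich cells, where 17.8% of all genes rose and 20.3% fell, 4 partners or targets rose and 6 fell of 15, and MYC (ENSDARG00000007241) was at 6.40 and 12.4 CPM against 169 and 199 CPM. In that comparison 4 of 10 HSPC genes fell, with TAL1 at −3.01 ± 0.29 and LMO2 at −3.75 ± 0.42, and 3 rose. In the cell cycle comparison, where 20.8% of all genes rose and 28.8% fell, 4 HSPC genes of 11 and 4 partners or targets of 14 rose, and 5 and 6 fell. TAL1 (2.08 ± 0.23), LMO2 (2.06 ± 0.24), gata1a (1.62 ± 0.21) and MYC (ENSDARG00000007241, 1.87 ± 0.26) rose with MYB there, and CEBPB (−4.69 ± 0.24) fell. Between D and S cells 0 of 12 HSPC genes and 0 of 15 partners or targets were called. As edgeR called 0 of all 8488 genes there, these counts say nothing about the lists in particular. Uncalled folds, D over S, reached 2.76 ± 0.34 for CEBPA and 1.65 ± 0.23 for ptprc. Folds were above 0 in 7 of the 12 and 8 of the 15 genes.

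**Figure D5:**
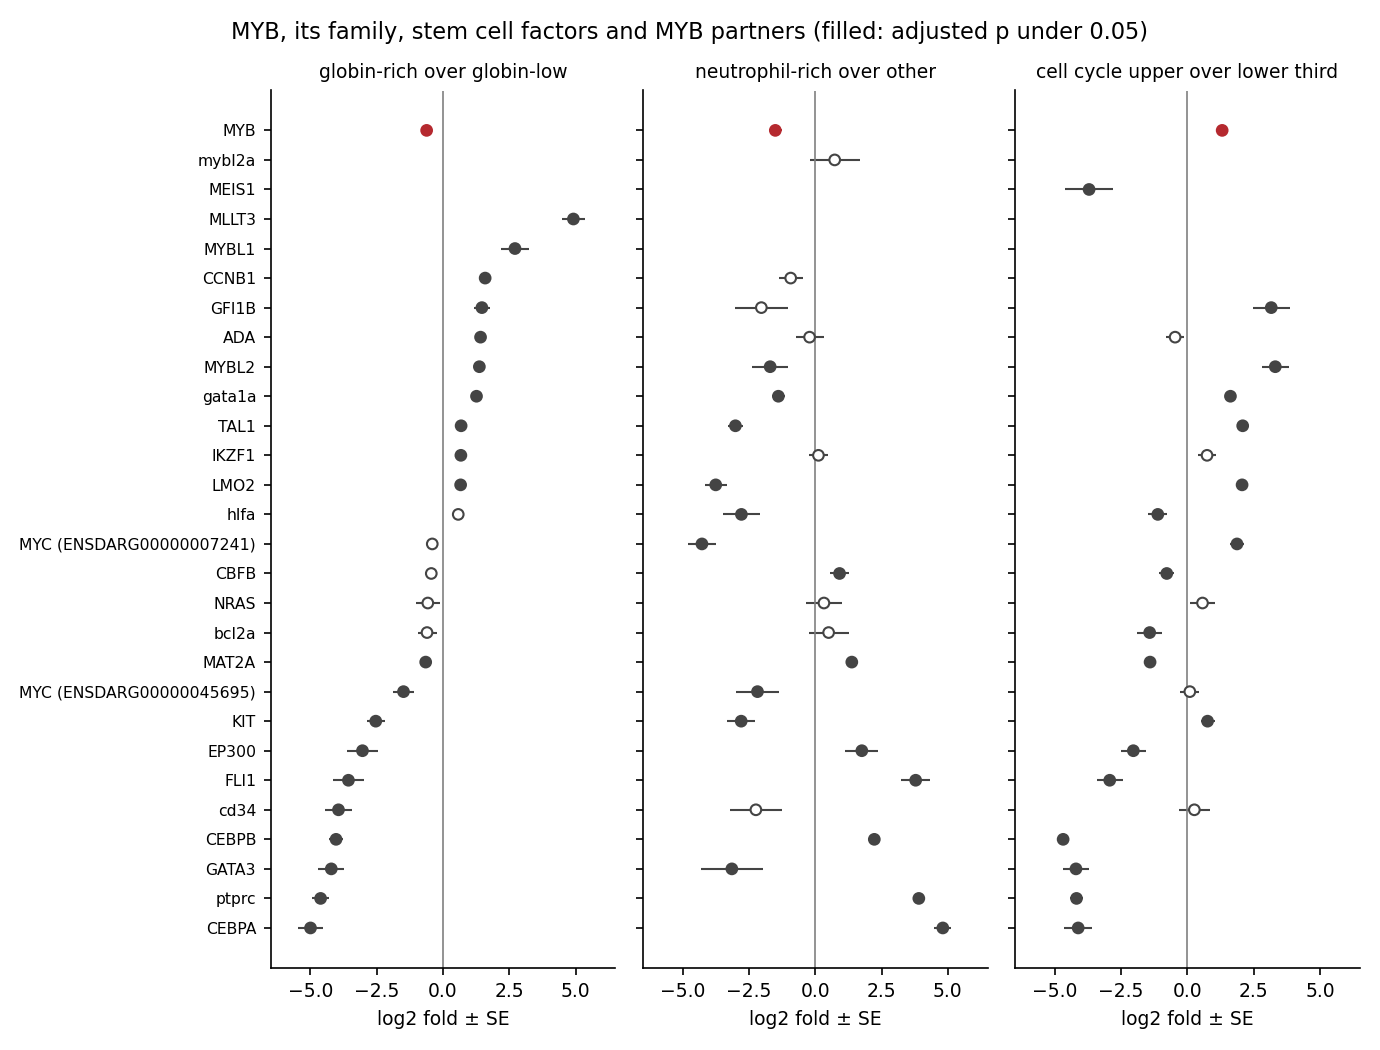
Log2 folds ± SE (x axis, n = 2 plates) of MYB, in red, and of the tested genes of its family, HSPC factors and MYB partners or targets (rows) in 3 comparisons; filled points had an edgeR adjusted p under 0.05, and a missing point was not tested. MYB was at −0.62, −1.51 and 1.31, while TAL1 and LMO2 were at 0.68 and 0.66, −3.01 and −3.75, and 2.08 and 2.06.

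Across cells, blf was the gene most like MYB in its pattern. Among 3223 genes found in at least 20% of the cells of each plate, the likeness was the mean over the plates of Pearson's r of log2(1 + transcripts per 10000), over 300 and 275 cells, and these points share library and depth. The 10 highest were blf (0.504), the histone deacetylase gene hdac7b (0.477), sb:cb81 (0.449), ENSDARG00000058337 (0.443), the splicing gene SNRPB (0.434), TCIM (0.433), the translation factor gene EIF5A2 (0.429), MYC (ENSDARG00000007241, 0.416), AHCY, a gene of the methyl donor cycle (0.415), and the ATP synthase gene ATP5F1A (0.413). The median gene had 0.119. TAL1 had 0.390, LMO2 0.357 and KIT 0.344, while MYBL2 had 0.148.

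At the other end of the order were COTL1 (−0.375) and tmsb4x (−0.362), both of actin-binding proteins, the chaperone gene HSP90AA1 (−0.343), the autophagy adaptor gene SQSTM1 (−0.326), ENSDARG00000044395 (−0.322) and the purine enzyme gene PNP (−0.316). CEBPB had −0.305. At 2000 transcripts per cell the values were nearer to 0, with 0.240 for blf, 0.260 for MYC (ENSDARG00000007241), −0.232 for COTL1 and −0.266 for HSP90AA1, and blf ranked 9 and MYC 2 of the 3223. The rest of the 10 highest then ranked 7 (hdac7b), 122 (sb:cb81), 28 (ENSDARG00000058337), 62 (SNRPB), 148 (TCIM), 19 (EIF5A2), 47 (AHCY) and 76 (ATP5F1A). TAL1 had 0.152 (rank 151), LMO2 0.114 (rank 334) and KIT 0.176 (rank 100). The order of genes thus depended on depth.

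Against the summed shares, MYB had r values of 0.26 on plate 20 and 0.32 on plate 21 with the cell cycle share, and 0.45 and 0.46 in cells of at most 5% globin. With the neutrophil share r was −0.18 and −0.25, and with the globin share −0.06 and 0.01. The globin values were near 0, and the finer globin classes showed a level that was highest in the middle of the range. With total depth r was 0.30 and 0.33. These are descriptions of cells within a plate, with no test.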

How the data were processed

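The submitters' processing notes name BWA as a tool and Zv9 as a build. Of the counting step and its use of strand, the sources used here say nothing. In the deposited tables the values are expected counts: all 1273614 values above 0 matched, within 0.011, a whole number of identifiers corrected for repeated draws from 4096. Spike-in rows were left out. Names were paired with 15742 of 19955 IDs; many are human names, and near-identical copies can share reads. Sort classes came from the authors' layouts.

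Cells of at least 500 transcripts were summed per plate and class, rounded and tested two-sided over all genes with edgeR 4.0.16 (filterByExpr, TMM, quasi-likelihood) in R 4.3.3, with plate as a block because each plate received every class, and with Benjamini-Hochberg adjustment at 0.05. Per-plate folds used TMM-normalized CPM with 1 added. DESeq2 1.42.0, other filters, depths, class limits and left-out plates were alternatives. Globin (11 rows), neutrophil (9) and cell cycle genes were left out of sums of the classes they define. Reduction to fixed depth drew whole identifiers without replacement. Clusters (scanpy 1.11.5, Leiden resolution 0.8, 2000 variable genes, MYB left out) are descriptions; no doublet caller was run on sorted wells. The fits were tested on simulated data.

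MYB, its family, from each list the 4 members of smallest p, and the 10 highest and 6 lowest correlations were named by rule. Other members of the HSPC and partner lists were named after their values were seen. The gene, lists, classes and tests were chosen with earlier results of these data known. The files hold 2 plates, so intervals cover counting error, and p-values cover only the variation between plates that the fit leaves. The fit shares part of that variance over genes. Each edgeR SE was taken from the fold and the F statistic of the fit, so it is not the SD of the 2 plate folds. For neutrophil-rich cells the SE of MYB was 0.25 and that SD 0.48. The genes runx1 and kdrl were not analysed here.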

Additional observations from a re-analysis of the deposited data

Results flagged for a closer look

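Wells outside the comparisons also held MYB. The undefined wells with at least 500 transcripts held 27.05 MYB transcripts on plate 20, in 4 of 7 wells, and 28.04 on plate 21, in 4 of 9 wells. Their classes are not given by the layouts, and the wells entered no comparison. Wells under 500 transcripts held 7 MYB transcripts on plate 20 (5 of 77 wells) and 0 on plate 21 (100 wells).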

How the results depend on the processing

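The lower MYB level of neutrophil-rich cells kept its direction and stayed called in all 13 tested alternatives (log2 fold −2.94 to −1.34). That of globin-rich cells kept its direction in 16 of 16 and was called in 15, the exception being classes of equal size at −0.29. The higher level in the high cell cycle class was called in 13 of 16; it was 1.07 with classes from the S phase list alone, 0.61 from the G2/M list alone, 0.88 with cells reduced to 1000 transcripts, and −0.18 within the 3 largest clusters and −0.44 there without wells rich in muscle or epidermis, where the direction turned. In the same clusters the intermediate over the globin-low class turned to −0.51, and to −0.46 without those wells. The latter was the 1 of 16 alternatives in which that comparison was called, but the clusters were chosen after values had been seen. Cell type composition was changed by the restriction to these clusters, and its part in the result was not tested. All tallies of this paragraph include alternatives chosen after the data were seen, whose calls are no independent support.

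The fold of D over S cells turned to −0.059 when the layout of plate 21 was read down columns, and that of cells of at most 5% globin to 0.65 at 1000 transcripts per cell, where all D over S cells gave 0.64; neither was called in any tested alternative. With 1 plate left out, folds ran from −0.14 to 0.23 for D over S, −0.24 to 0.08 for the same at most 5% globin, −0.75 to −0.48 for globin-rich, 0.06 to 0.13 for intermediate, −1.76 to −1.12 for neutrophil-rich and 1.18 to 1.31 for the high cell cycle class. Each such value rests on 1 plate and has no test. Without the replicate block (plate) the folds were 0.06, −0.09, −0.61, 0.15, −1.50 and 1.31 in that order, and no MYB call changed.

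The share of cells with MYB was 24.2% at 1000 transcripts, 41.4% at 2000 and 65.6% without reduction. Mean correlations at 2000 transcripts were 0.12 for cell cycle, −0.084 for globin and −0.12 for neutrophil shares, against 0.29, −0.03 and −0.22 before; Spearman's rho for cell cycle was 0.24. Counts of called genes ran over all settings from 0 to 371 (D over S), 435 to 3362 (globin-rich), 20 to 2139 (intermediate), 473 to 3035 (neutrophil-rich), 115 to 4726 (cell cycle) and 0 to 245 (D over S at most 5% globin). Alternatives on neutrophil-rich cells, the depth band, TMM and clusters were chosen after the data were seen.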
